A study of Mus musculus with 4 samples.

Results

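The genes of cholesterol and fatty acid synthesis were examined in testis RNA of Lrrc8a mutant and wild-type mice. They were 33 gene symbols, taken by name from the 24420 symbols of the deposited table, and all 33 were found there. The set covers the mevalonate arm (7 genes), the steps from squalene to cholesterol (11), the regulators of the SREBP transcription factors (5), the enzymes that make fatty acids (3), the desaturases (4) and the elongases (3). The mutant group (MUT) is labelled as mutant for lrrc8a and the wild-type group (WT) as wild type, both of the FVB strain, with 2 libraries each of freshly isolated testis. The Lrrc8a protein is an obligatory part of the anion channel that opens when cells swell and lets out chloride and organic osmolytes. The sources used here do not give the kind of mutation, the age of the mice or whether each library was made from a different mouse. The p-values therefore reflect library-to-library spread only, which could be technical. The labels give germ cells as the cell type and testis as the source, and no step that separates cells is named.

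Cholesterol is built from acetyl-CoA through mevalonate, isoprenoids and squalene, and the same acetyl-CoA feeds fatty acid synthesis through malonyl-CoA. When sterols are scarce in the endoplasmic reticulum, SCAP escorts the SREBP precursors to the Golgi, where they are cut to release transcription factors that switch on most of these enzymes. INSIG proteins hold SCAP back when sterols are plentiful. In the testis, Leydig cells use cholesterol to make androgens, and germ cells and Sertoli cells carry phospholipids rich in very long polyunsaturated fatty acids. Mice that lack Fads2 or Elovl2, which act on the way to those fatty acids, fail to complete spermatogenesis.

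The libraries held between 40426400 and 68192776 reads assigned to genes, and each of the 33 genes had at least 234 reads in every library. Values are CPM as deposited. They summed to 992486.9 and 987722.6 in the MUT libraries and to 1011463 and 1008533 in the WT libraries. They were thus not scaled to the plain total of these reads. Lrrc8a was at 13.49 and 15.86 CPM in MUT testis, against 18.21 and 17.15 CPM in WT testis. This difference (log2 fold change -0.26, SE 0.0998) missed the threshold (limma adjusted p = 0.218). Markers of the main testicular cell types were present in every library: the summed CPM of 6 elongating spermatid markers lay between 11850 and 12560 in MUT and between 12160 and 13540 in WT. The red cell globin genes Hba-a1, Hba-a2, Hbb-bs and Hbb-bt were listed at 0 in every library. The sources used here do not say how reads shared by similar genes were counted. These values were therefore not taken as a measure of blood content.

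Of the 33 genes, Fads2 alone passed the test, being higher in MUT testis. This is 1 gene called higher, against a background of 0.482% of 15364 tested genes, and 0 called lower, against 0.267%. Calls are at a limma adjusted p under 0.05, fitted on log2(CPM + 0.5) over all tested genes. The count test edgeR called 1 of the 33 genes higher (background 0.488%) and 0 lower (0.267%), and DESeq2 called 3 higher (0.759%) and 0 lower (0.581%). At an unadjusted p under 0.05, 12 were higher (background 7.74%) and 1 was lower (background 6.98%). The MUT and WT libraries did not overlap for 17 genes: MUT was higher for 14 (background 23.0%) and lower for 3 (background 22.6%). The median log2 fold change was 0.05, against -0.0016 for all tested genes, and 25 of the 33 lay above 0, against 49.6% of all tested genes, and 8 below it, against 50.4%. Among the 11142 tested genes within the range of mean CPM of the 33, limma called 0.530% higher and 0.278% lower, and the libraries did not overlap for 23.9% with MUT higher and 22.9% with MUT lower. These differences were small: the largest was 1.3-fold, and for 19 of the 33 the gap between the libraries of 1 genotype exceeded the difference between genotypes.

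**Figure D1:**
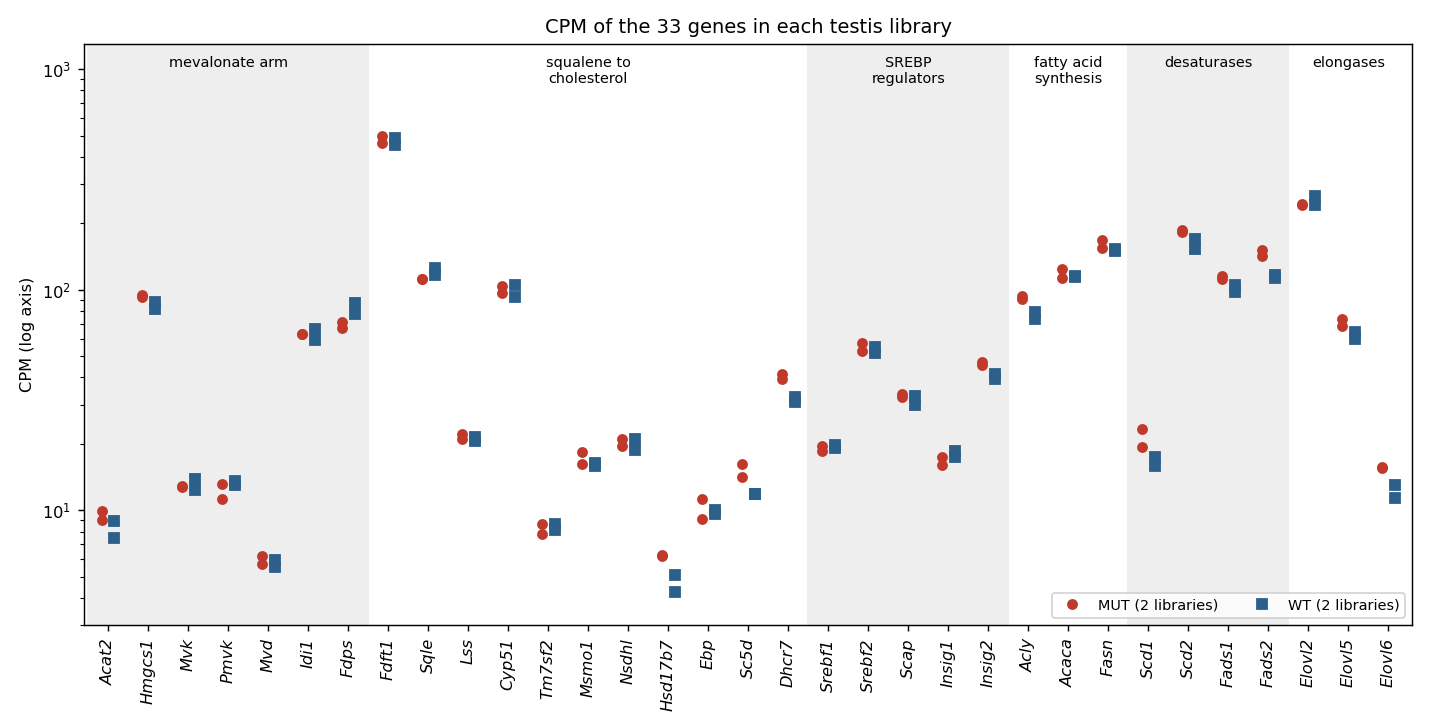
CPM (log axis) of the 33 genes in the MUT libraries (circles) and WT libraries (squares), grouped by role. The genotypes lie close together for most genes. All 4 desaturase genes have both MUT libraries above both WT libraries (background 23.0% of all tested genes).

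**Figure D2:**
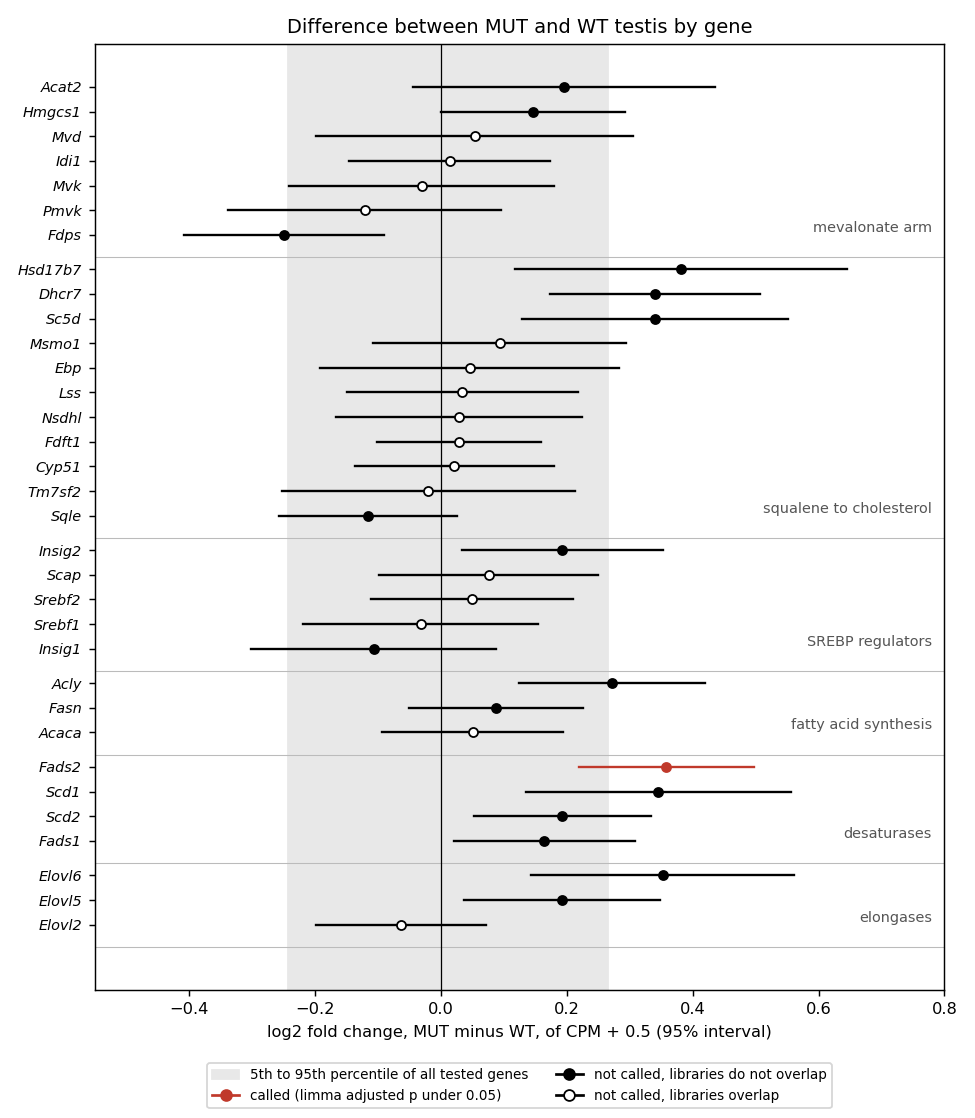
Log2 fold change, MUT minus WT, with its 95% interval for each gene. The grey band runs from the 5th to the 95th percentile of all tested genes, -0.24 to 0.27, and Fads2, in red, is the called gene.

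The desaturases, which insert cis bonds into fatty acyl chains, were the role group with the highest median, a log2 fold change of 0.27 over 4 genes. Fads2, the delta-6 desaturase that opens the pathway from essential fatty acids to long polyunsaturated ones, was at 142.7 and 151 CPM in MUT testis, against 116.2 and 112.7 CPM in WT testis. Both MUT libraries lay above both WT libraries, with a gap wider than the spread within either genotype. The means were 146.9 ± 5.86 and 114.4 ± 2.46 CPM (SD, n = 2 each), a log2 fold change of 0.36 (SE 0.0662, 95% interval 0.22 to 0.50, limma adjusted p = 0.0122), or 1.28-fold. Its p ranked 44 among the tested genes. The call was lost without the library MUT 2 (adjusted p = 0.0948), without the filter on low values (0.139) and without the variance trend (0.199). It held in 13 of 16 alternative settings, where the adjusted p ranged from 0.00041 to 0.0325.

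Fads1, the delta-5 desaturase that acts downstream of Fads2, was at 111.6 and 115.6 CPM in MUT testis and at 105.2 and 97.47 CPM in WT testis. Its libraries did not overlap either, but the difference was not called (log2 fold change 0.16, SE 0.0688, limma adjusted p = 0.271). Fads1 and Fads2 lie on opposite strands of chromosome 19 (GRCm38), from 10182888 to 10196877 and from 10062765 to 10101746, with 81141 bases between them. The stearoyl-CoA desaturases, which make monounsaturated from saturated fatty acids, also had no overlap between genotypes. Scd1 was at 19.39 and 23.24 CPM in MUT testis, against 17.43 and 15.82 CPM in WT testis (log2 fold change 0.35, SE 0.1, limma adjusted p = 0.113). Scd2 was at 183.4 and 186 CPM in MUT testis, against 153.4 and 170 CPM in WT testis (0.19, SE 0.0673, adjusted p = 0.182). The MUT libraries of Scd1 and the WT libraries of Scd2 were the ones that spread widely. Without MUT 1, Scd1 had a log2 fold change of 0.47 and was called (adjusted p = 0.0278), while without MUT 2 it had 0.22 (0.503). Scd1 and Scd2 are paralogs on chromosome 19, from 44394455 to 44407879 and from 44293674 to 44306864, with 87590 bases between them. The sources used here do not say how reads shared by paralogs were counted.

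**Figure D3:**
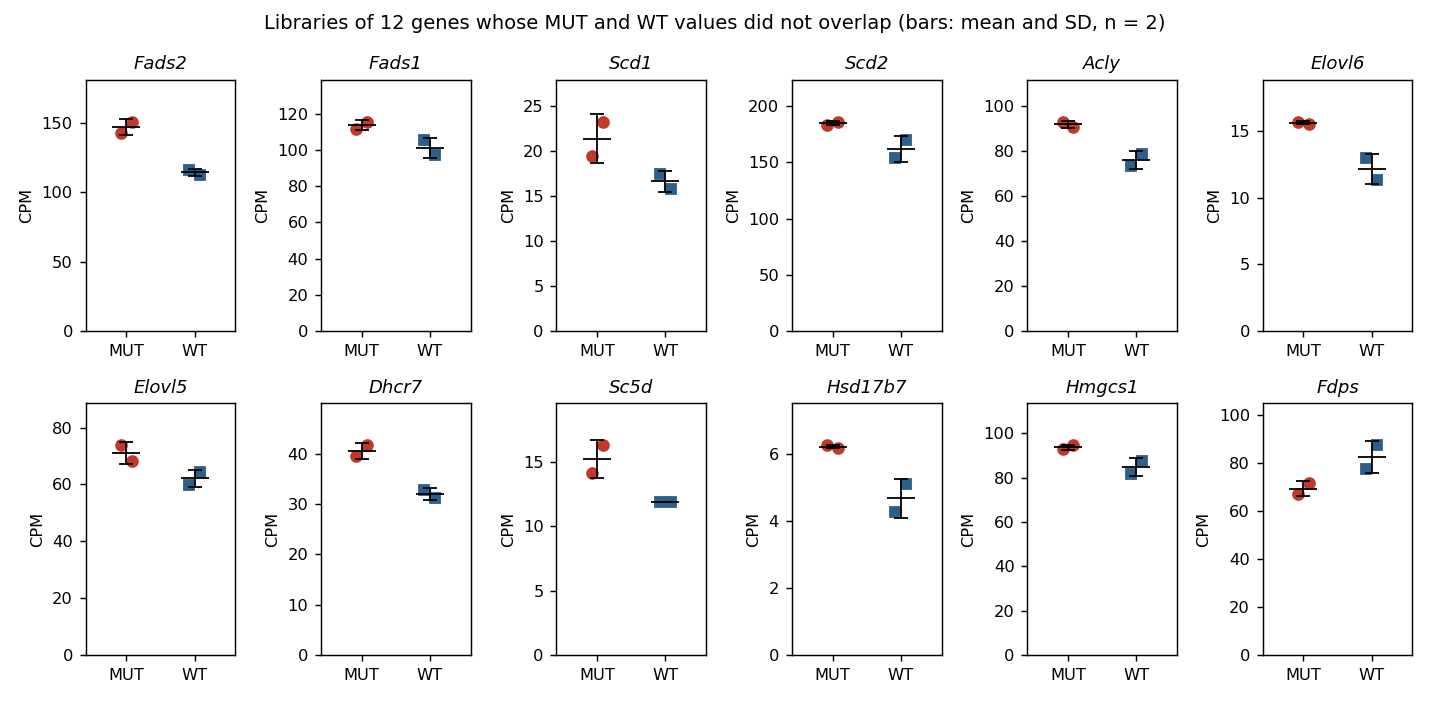
CPM of 12 of the 17 genes whose MUT and WT libraries did not overlap, with the mean and SD of each genotype (n = 2). MUT lies above WT in 11 of these panels and below it for Fdps.

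Of the elongases, which add carbon units to fatty acyl-CoA, 2 of 3 were higher in both MUT libraries than in both WT libraries (background 23.0%). None was called. Elovl6, which extends saturated and monounsaturated chains, was at 15.7 and 15.54 CPM in MUT testis, against 12.96 and 11.34 CPM in WT testis. The MUT libraries were nearly equal and the WT libraries lower and further apart. The log2 fold change was 0.35 (SE 0.0998, limma adjusted p = 0.102). With 1 library left out, that of Elovl6 ranged from 0.26 without WT 2 to 0.45 without WT 1. Elovl5, which extends polyunsaturated chains made by the Fads enzymes, was at 73.74 and 68.34 CPM in MUT testis and at 59.94 and 64.3 CPM in WT testis (0.19, SE 0.0743, adjusted p = 0.23). Elovl2, which extends these chains further, was at 245.4 and 241.4 CPM in MUT testis, against 243.1 and 266 CPM in WT testis. These libraries overlapped, and the interval of the log2 fold change ran from -0.20 to 0.07.

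Of the 3 genes of fatty acid synthesis, none was called. Acly, which cleaves citrate to supply cytosolic acetyl-CoA to fatty acids and sterols alike, was at 93.22 and 90.91 CPM in MUT testis, against 73.42 and 79.01 CPM in WT testis. The genotypes did not overlap, and the means were 92.07 ± 1.63 and 76.22 ± 3.96 CPM (SD, n = 2 each). The log2 fold change was 0.27 (SE 0.0704, limma adjusted p = 0.0776). Acly was called by DESeq2 (adjusted p = 0.044) and not by edgeR (0.0809). It was not called by limma without the filter on low values (0.239) or without the variance trend (0.286). With 1 library left out, its log2 fold change ranged from 0.22 to 0.32. Fasn, the fatty acid synthase, was at 167.1 and 154.6 CPM in MUT testis and at 153 and 149.5 CPM in WT testis (0.09, SE 0.0661, adjusted p = 0.57). Acaca, the acetyl-CoA carboxylase that makes malonyl-CoA, was at 123.9 and 113.3 CPM in MUT testis and at 113.8 and 115 CPM in WT testis, with overlap (0.05, 95% interval -0.09 to 0.19). Over the 10 fatty acid genes, the libraries did not overlap for 8, all higher in MUT (background 23.0%), and the median log2 fold change was 0.19. The summed CPM of these 10 genes was 1176 and 1160 in MUT, against 1048 and 1081 in WT.

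The 18 enzymes of cholesterol synthesis had a median log2 fold change of 0.03 and none was called; 4 were higher (background 7.74%) and 1 lower (background 6.98%) at an unadjusted p under 0.05. Their summed CPM was 1081 and 1115 in MUT testis, against 1078 and 1090 in WT testis. The difference between the cholesterol and the fatty acid genes was not tested. The largest differences lay at late steps. Dhcr7, which reduces the immediate precursor to cholesterol, was at 39.42 and 41.63 CPM in MUT testis, against 32.72 and 31.08 CPM in WT testis. Both MUT libraries were above both WT libraries by more than the libraries of either genotype differed. The means were 40.53 ± 1.56 and 31.9 ± 1.16 CPM (SD, n = 2 each), and the log2 fold change of 0.34 (SE 0.0796) narrowly missed the threshold (limma adjusted p = 0.0519). DESeq2 called Dhcr7 (adjusted p = 0.0266) and edgeR did not (0.055). Nor did limma without the filter on low values (0.223) or without the variance trend (0.22).

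Sc5d, the sterol desaturase that forms the substrate of Dhcr7, was at 14.15 and 16.27 CPM in MUT testis, against 11.88 CPM in each WT library (log2 fold change 0.34, SE 0.101, limma adjusted p = 0.118). Hsd17b7, a sterol ketone reductase that also reduces estrone, was at 6.253 and 6.181 CPM in MUT testis, against 4.257 and 5.087 CPM in WT testis (0.38, SE 0.126, adjusted p = 0.164). For both genes the libraries of the genotypes did not overlap. Hsd17b7 had the largest log2 fold change of the 33 genes, the largest standard error and the lowest level per length.

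The other genes between squalene and cholesterol differed less. Sqle, the squalene epoxidase, was at 111.4 CPM in each MUT library, against 116.4 and 125.4 CPM in WT testis (log2 fold change -0.12, SE 0.0676, limma adjusted p = 0.446). Fdft1, the squalene synthase, was at 464 and 496.6 CPM in MUT testis and at 486.5 and 454.8 CPM in WT testis, with a 95% interval of the log2 fold change from -0.10 to 0.16. Cyp51, the lanosterol demethylase that also yields the meiosis-activating sterols of the gonads, was at 103.5 and 96.58 CPM in MUT testis and at 92.15 and 105.4 CPM in WT testis, with an interval from -0.14 to 0.18. The libraries of the genotypes overlapped for both. Fdft1 shares 774 exonic bases with Ctsb, Cyp51 166 with Akap9 and Lss 381 with 4930483K19Rik, each on the opposite strand. The regulator gene Srebf1 likewise shares 109 with Rai1 on the opposite strand. Tm7sf2 shares 532 with Vps51 on its own strand. The library kit keeps strand, but the sources used here do not say whether the counting used it. The genotypes also overlapped for Lss, which closes the sterol rings, Tm7sf2, a sterol reductase, Msmo1 and Nsdhl, which act in removing methyl groups, and Ebp, the sterol isomerase. Their log2 fold changes lay between -0.02 for Tm7sf2 and 0.09 for Msmo1.

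In the mevalonate arm, the gene with the smallest p was lower in MUT testis. Fdps, which makes farnesyl diphosphate, the branch point to sterols and prenyl groups, was at 66.94 and 71.39 CPM in MUT testis, against 77.53 and 87.2 CPM in WT testis. The genotypes did not overlap, and the WT libraries spread more widely. The log2 fold change was -0.25 (SE 0.0758, limma adjusted p = 0.131). With 1 library left out, that of Fdps ranged from -0.33 without WT 1 to -0.16 without WT 2. Fdps shares 1124 exonic bases on the same strand with Gm43738 in the annotation used here. Gm43738 is not among the deposited symbols, so whether this overlap affected the reads of Fdps is not known. Hmgcs1, which makes HMG-CoA, was at 93.02 and 94.58 CPM in MUT testis, against 81.77 and 87.7 CPM in WT testis (0.15, SE 0.0695, adjusted p = 0.336). Acat2, the cytosolic thiolase that begins the pathway, was at 9.882 and 9.016 CPM in MUT testis and at 8.914 and 7.499 CPM in WT testis (0.20, SE 0.114, adjusted p = 0.447). Both had MUT above WT in every library.

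The remaining genes of the mevalonate arm overlapped between genotypes. Idi1, the isomerase of the isoprenoid building blocks, averaged 63.19 ± 0.0609 CPM in MUT and 62.68 ± 5.28 CPM in WT testis (SD, n = 2 each). The mevalonate kinase gene Mvk averaged 12.79 and 13.1 CPM, the phosphomevalonate kinase gene Pmvk 12.23 and 13.3 CPM, and the decarboxylase gene Mvd 5.965 and 5.728 CPM, in MUT and WT testis. None of these 4 was called (limma adjusted p from 0.626 to 0.956).

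Of the 5 SREBP regulators, none was called. The genes of the transcription factors themselves overlapped between genotypes. Srebf2, whose product mainly drives cholesterol genes, was at 52.67 and 57.47 CPM in MUT testis and at 54.85 and 51.51 CPM in WT testis (log2 fold change 0.05, 95% interval -0.11 to 0.21). Srebf1, whose product mainly drives fatty acid genes, was at 18.47 and 19.55 CPM in MUT testis and at 19.16 and 19.72 CPM in WT testis (-0.03, interval -0.22 to 0.15). Scap, the escort protein gene, was at 32.52 and 33.79 CPM in MUT testis and at 32.99 and 29.94 CPM in WT testis (0.08, interval -0.10 to 0.25). The log2 fold changes of the INSIG genes lay on opposite sides of 0, and neither gene was called. Insig2 was at 46.95 and 45.71 CPM in MUT testis, against 41.47 and 39.49 CPM in WT testis (0.19, SE 0.0763, limma adjusted p = 0.24). Insig1, itself a target of the SREBPs, was at 16.03 and 17.35 CPM in MUT testis, against 17.47 and 18.54 CPM in WT testis (-0.11, SE 0.0929, adjusted p = 0.634). For neither gene did the genotypes overlap.

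Levels between genes can be compared only per length, and were taken as CPM per kb of annotated exon. Fdft1 was highest, at 114 CPM per kb in MUT and 111 in WT testis, above 96.4% of tested genes. Elovl2 followed at 61.4 and 64.2, then Fads2 at 44.6 and 34.7, Scd2 at 33.8 and 29.6, and Cyp51 at 22.7 and 22.4 CPM per kb in MUT and WT testis. Of these, 3 of the 4 highest genes serve to desaturate or elongate fatty acids. Scd1 stood far below its paralog, at 4.36 and 3.4 CPM per kb in MUT and WT testis. Hsd17b7 was lowest, at 1.22 and 0.915 CPM per kb, above 20.2% of tested genes. In all, 21 of the 33 genes lay above the median tested gene, at 4.6 CPM per kb, and the highest exceeded the lowest 105-fold.

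**Figure D4:**
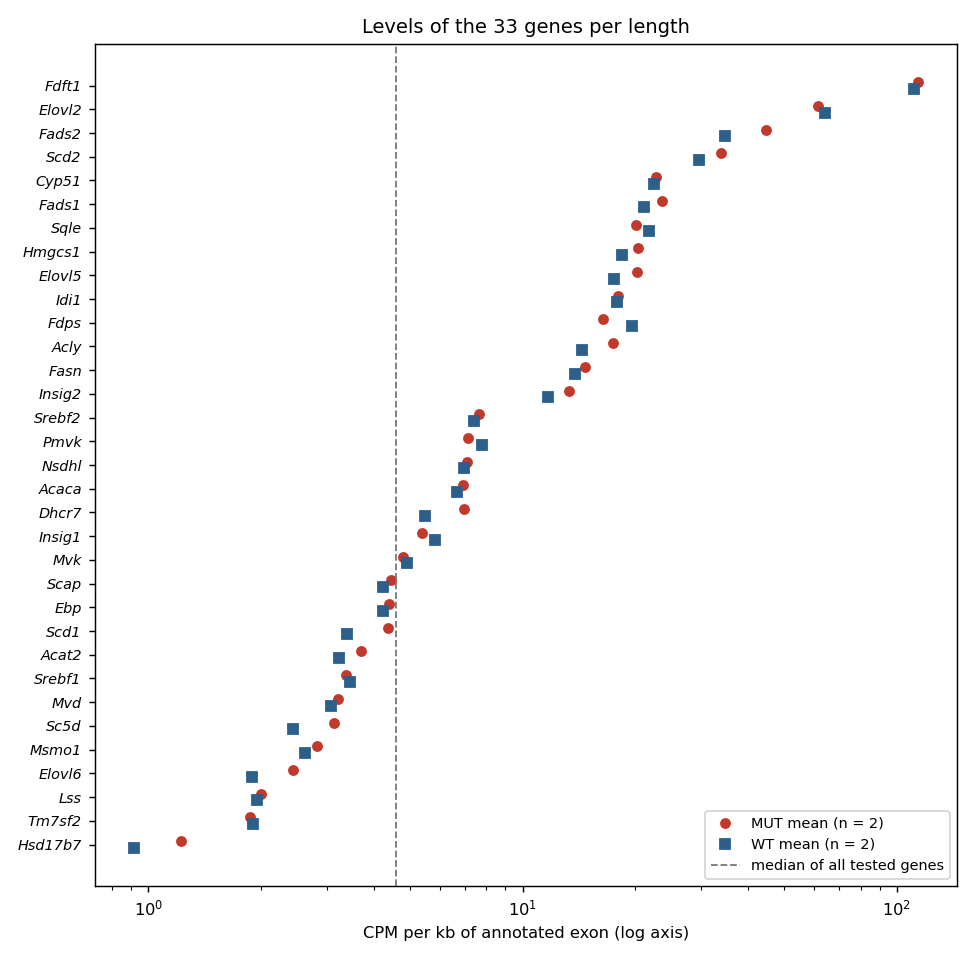
Mean level of each gene per kb of annotated exon (log axis) in MUT (circles) and WT (squares) testis, n = 2 each; the dashed line marks the median of all tested genes, 4.6 CPM per kb. Differences between genes, up to 105-fold, are far larger than those between genotypes.

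Among 64 further genes of these pathways, 59 passed the filter on low values and none was called by limma, edgeR or DESeq2. At an unadjusted p under 0.05, 6 of these 59 were higher (background 7.74%) and 2 lower (background 6.98%), counts near the background, and the median log2 fold change was 0.03. In the isoprenoid branches (14 tested), the smallest p was that of Lbr, a sterol reductase and lamin receptor gene, at 32.04 and 29.59 CPM in MUT and 24.83 and 26.92 CPM in WT testis (log2 fold change 0.25, SE 0.0855, limma adjusted p = 0.181), followed by Pggt1b (0.27, SE 0.129). In SREBP processing and sterol sensing (14 tested), Stard4, a sterol carrier gene, was at 6.663 and 5.595 CPM in MUT and 4.094 and 4.805 CPM in WT testis (0.42, SE 0.131, adjusted p = 0.14). Nr1h3, an oxysterol receptor gene whose product induces Srebf1, was not called, and was at 15.23 and 18.3 CPM in MUT and 21.36 and 18.7 CPM in WT testis (-0.25, SE 0.103, adjusted p = 0.256).

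In fatty acid supply and regulation (13 tested), the 2 smallest p values were those of Prkaa2, an AMP-activated kinase subunit gene (log2 fold change 0.39, SE 0.174), and Mlx (0.19, SE 0.137). Among the other elongation and desaturation genes, 11 of 16 were tested. Degs1, the dihydroceramide desaturase gene, had a log2 fold change of 0.24 (SE 0.102) and Hsd17b12, a reductase of the elongation cycle, one of 0.21 (SE 0.0966). Among the 7 acyl-CoA synthetase genes of fatty acid activation, Acsbg2 had 0.17 (SE 0.074) and Acsl4 0.18 (SE 0.1). Acsbg2 was called without WT 1, the only such call among these 59 genes in 16 alternative settings.

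The cell type markers were read beside these genes, and 3 of them were called. Cyp17a1 and Kit were called higher (background 0.482% of all tested genes) and Cd74 lower (background 0.267%). The summed CPM of 8 Leydig markers was 1164 and 1210 in MUT, against 1019 and 997.4 in WT testis (1.18-fold), with 5 of 8 higher without overlap (background 23.0%). Cyp17a1, a steroid hydroxylase gene, was the 1 called (background 0.482%), at 657.1 and 680.2 CPM in MUT and 572.5 and 533 CPM in WT testis (log2 fold change 0.28, SE 0.0604, limma adjusted p = 0.0361). The libraries overlapped for the Leydig markers Star (0.11), Hsd3b6 (-0.0070) and Insl3 (-0.28). The summed CPM of 8 Sertoli markers was 1008 and 1038 in MUT, against 968.3 and 931.1 in WT testis (1.08-fold), with 6 of 8 higher without overlap (background 23.0%) and none called. For comparison, Fads2, Dhcr7 and Acly were 1.28-, 1.27- and 1.21-fold higher in MUT. The Leydig markers Cyp11a1, Hsd3b1, Hsd17b3 and Lhcgr, none of them called, were 1.23-, 1.23-, 1.22- and 1.26-fold higher, similar to these genes. Star, Hsd3b6 and Insl3 were at 1.08, 0.995 and 0.822 times WT. The part of Leydig cells, Sertoli cells or any other cell type in the results was not tested. In bulk tissue a change in the number of cells of a type and a change in RNA per cell cannot be told apart. The summed CPM of peritubular myoid markers was 94.98 and 104.3 in MUT, against 117.3 and 110.2 in WT testis. The sums in MUT were 1.06 (spermatogonia), 0.991 (spermatocytes), 0.99 (round spermatids), 0.95 (elongating spermatids), 0.957 (macrophages) and 0.959 (endothelium) times those in WT. Of the 6 spermatogonial markers, 4 were higher without overlap (background 23.0%) and 1 was lower (background 22.6%). They were at 1.38 (Kit), 1.32 (Zbtb16), 1.14 (Gfra1), 1.11 (Dmrt1), 0.963 (Stra8) and 0.867 (Uchl1) times WT. Among the 6 spermatogonial markers 1 was called higher (background 0.482%), and among the 5 macrophage markers 1 was called lower (background 0.267%). Both are named after their values were seen. Kit, a receptor of differentiating spermatogonia that Leydig cells also express, was at 20.67 and 23.09 CPM in MUT, against 14.6 and 16.97 CPM in WT testis (log2 fold change 0.46, SE 0.0987, limma adjusted p = 0.0329). Cd74, the invariant chain of antigen-presenting cells, was at 4.551 and 4.691 CPM in MUT, against 7.935 and 6.514 CPM in WT testis (-0.59, SE 0.126, adjusted p = 0.0329). The 6 adipocyte markers summed to 16.11 and 18.42 CPM in MUT and to 17.96 and 14.86 CPM in WT testis, with overlap. Of the 5 epididymal markers, Lcn5, Lcn8, Crisp1 and Cst11 were under the filter and Rnase10 passed it; their sums were 5.228 and 5.595 CPM in MUT and 4.465 and 3.78 CPM in WT testis.

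Sequence before the start sites was also searched. The 33 genes were chosen by name and include SREBP targets. Shares of motifs bound by SREBPs and their partners are therefore not independent of that choice. RefSeq start sites on GRCm38.p6 were at hand for 27 of the 33 genes, some with several, all but Fads1, Fdft1, Fdps, Scd1, Scd2 and Sqle, and 250 bases before each were searched on both strands for 4 motifs: the sterol regulatory element core TCACNCCAC, bound by SREBPs, the CCAAT box CCAAT, bound by the partner factor NF-Y, the GC box GGGCGG, bound by Sp1, and the E-box CACGTG. The CCAAT box was found for 20 of 27 genes (74.1%), against 39.8% of tested genes with an entry and 37.5% of all entries. It was found for 14 of 15 cholesterol enzymes, 4 of 5 SREBP regulators and 2 of 7 fatty acid genes. The GC box was found for 22 of 27 (81.5%, against 58.7% of tested genes and 35.4% of all entries), the E-box for 6 (22.2%, against 9.3% and 6.9%) and the sterol regulatory element core for Hmgcs1 alone (3.7%, against 1.2% in both). No matches of different motifs overlapped. A match of letters is a description and not a shown binding site.

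The windows of 3 genes are printed to show this layout, each 5′ to 3′ on the strand of its gene and credited to RefSeq, with matches in capitals. Hmgcs1 (chr13:119690101-119690350, plus strand) has the sterol regulatory element core with CCAAT and GC boxes around it. Dhcr7 (chr7:143829964-143830213, plus strand, the window with the most matches of its 3) has CCAAT and GC boxes. This window lies inside the annotated gene, which starts at 143823145. The windows that start at 143822917 and 143823149 have a GC box and an E-box, respectively, and no CCAAT box. The CCAAT match of Dhcr7 thus comes from the printed window alone. Acly (chr11:100528001-100528250, minus strand) has GC boxes and no CCAAT box. Fads2, the called gene, had 1 GC box in its window and no other match.
Hmgcs1: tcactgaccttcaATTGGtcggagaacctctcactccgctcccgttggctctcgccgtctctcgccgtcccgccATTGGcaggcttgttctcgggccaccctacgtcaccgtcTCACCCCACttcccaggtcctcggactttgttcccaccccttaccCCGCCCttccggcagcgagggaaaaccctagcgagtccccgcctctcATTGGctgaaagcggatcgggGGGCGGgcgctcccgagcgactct
Dhcr7: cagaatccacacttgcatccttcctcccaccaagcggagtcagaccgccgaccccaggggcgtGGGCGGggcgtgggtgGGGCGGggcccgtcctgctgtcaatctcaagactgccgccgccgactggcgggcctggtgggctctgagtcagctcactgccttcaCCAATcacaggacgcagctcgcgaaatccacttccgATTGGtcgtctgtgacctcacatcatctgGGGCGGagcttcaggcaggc
Acly: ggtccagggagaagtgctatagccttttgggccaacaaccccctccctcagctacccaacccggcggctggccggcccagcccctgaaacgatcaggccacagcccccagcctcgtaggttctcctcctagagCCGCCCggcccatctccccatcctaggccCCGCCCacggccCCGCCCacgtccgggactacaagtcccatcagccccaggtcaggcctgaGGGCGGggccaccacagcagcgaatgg

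**Figure D5:**
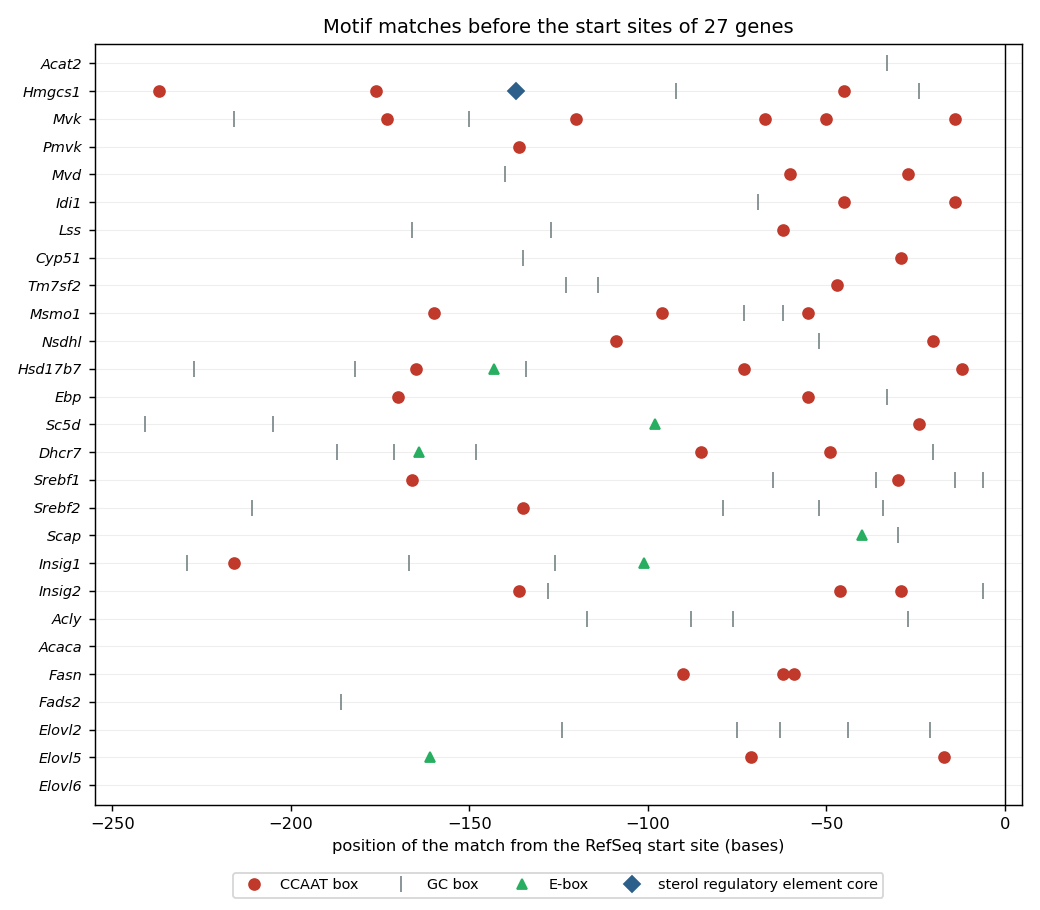
Position of each motif match from the RefSeq start site, in bases, for the 27 genes with an entry; matches from all windows of a gene share its row. CCAAT boxes (circles) appear in all but 1 of the 15 rows of cholesterol enzymes, Acat2 to Dhcr7, and in Fasn and Elovl5 alone among the fatty acid genes.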

How the data were processed

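Testis RNA was measured in 2 MUT and 2 WT libraries, made with the Illumina TruSeq stranded mRNA kit per the labels' protocols. The authors deposited 1 table of CPM for 24420 symbols. Per the submitters' processing notes, the tools were edgeR 3.8.6, HTSeq 0.6.0 and TopHat2 2.0.10 and the build mm10; no roles are given. All deposited values were whole multiples of the smallest value in their library (100% within 0.001 of a whole read), which recovered the reads. A symbol entered the tests if 2 or more libraries had it at 1 CPM or above, which left 15364 symbols, all 33 genes among them. Values of log2(CPM + 0.5) were tested with limma 3.58.1 in R 4.3.3 (trended eBayes, two-sided, Benjamini-Hochberg over all tested genes); fold changes are on that scale and understate changes of low genes. An exact permutation test of 2 against 2 cannot go below p = 0.333. Positions and exon lengths are from GENCODE vM21 (GRCm38). Alternatives changed the pseudocount, filter, scaling, variance model, replicate block, GC content and length trend (known for 96.03% of tested genes), the library left out and the tool (edgeR 4.0.16 and DESeq2 1.42.0 on the recovered reads). The pipeline was tested on simulated data. The 33 genes and all lists were chosen with earlier results of these data known. All 33 genes are named; of other pathway lists, the called genes or, with none, the 2 with the smallest p. Marker lists are given by their sums, with the called markers and a few others chosen after their values were seen.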

Additional observations from a re-analysis of the deposited data

How the results depend on the processing

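Against 1 of the 33 genes called higher, 0 were called without the filter on low values and without the variance trend, 2 after removal of the GC content and length trend, 3 with reads scaled to their plain total, 3 in DESeq2, and 0 to 3 when 1 library was left out (0 without MUT 2, 2 without MUT 1, 3 without WT 1 and 2 without WT 2). Lower calls then numbered 0 to 1 (Fdps without WT 1), and 0 to 1 of the other pathway genes were called higher. Over all tested genes, 74 were called higher and 41 lower. The counts were 7 and 4 without the filter, 5 and 2 with no variance trend, 35 and 18 after quantile normalization, 122 and 34 with plain totals, 94 and 72 in DESeq2, 44 and 31 without the GC and length trend, and 67 to 133 and 42 to 177 when 1 library was left out (133 and 177 without WT 1, 101 and 86 without MUT 2), where a lone library is assumed to vary like the others. The cause was not tested. Deviations of same-numbered libraries correlated at -0.1337. With 2 libraries per genotype this is a single value, and it cannot decide whether the replicate numbers pair the libraries. The replicate block gave 57 and 31 calls, Fads2 among them. The crossed pairing, tried after the data were seen, gave 131 and 104 calls, 3 of them higher among the 33 genes. In 16 alternatives 20 of the 33 genes kept the sign of their log2 fold change. The others, none of them ever called, turned sign. Without the GC and length trend Mvk was at 0.02, Idi1 at -0.0054, Lss at -0.04, Cyp51 at -0.0048, Srebf1 at 0.02 and Acaca at -0.04, and with plain totals Tm7sf2 was at 0.0068. With 1 library left out, Mvk ranged from -0.12 to 0.05, Mvd from -0.0017 to 0.11, Idi1 from -0.07 to 0.1, Fdft1 from -0.02 to 0.08, Cyp51 from -0.07 to 0.12, Tm7sf2 from -0.1 to 0.05, Nsdhl from -0.06 to 0.11, Ebp from -0.1 to 0.19, Srebf1 from -0.07 to 0.0076, Srebf2 from -0.01 to 0.11, Acaca from -0.01 to 0.11 and Elovl2 from -0.13 to 0.0019. Precision differed with depth: Hsd17b7, with 253 to 305 reads per library, had an SE of 0.126, and Fdft1, with 20327 to 32799, one of 0.0623. The shares of counting error and library spread in these were not tested.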
